A study of Mus musculus with 7 samples.

Results

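The core genes of the circadian clock were followed in RNA-seq libraries of mouse hippocampus, a forebrain region involved in memory. The 10 genes were Per1, Per2, Per3, Cry1, Cry2, Arntl (also called Bmal1), Clock, Dbp, Nr1d1 and Nr1d2, taken by symbol from the 55416 gene identifiers of the count files. Each symbol matched 1 identifier, and all 10 were among the 13152 genes that passed the filter on low counts. The rule went by name and used no measured value, and the set was picked with earlier results of these data known.

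The libraries came from hippocampi of male, age-matched CD1 mice, an outbred stock. In the control group (3 libraries) the mice received no treatment. The ONX-0914 group (2 libraries) received 10 mg/kg of ONX-0914, an inhibitor of the immunoproteasome, by intraperitoneal injection 2 times per week for 2 months, and the DMSO group (2 libraries) received an equal volume of the solvent on the same schedule. Therefore controls differ from both other groups in injection and handling as well as in the agent, and DMSO is the vehicle control of ONX-0914. The hour at which each animal was killed is not given in the sources used here, nor is the time since its last injection, although clock transcripts vary with the time of day.

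The clock runs as a transcriptional feedback loop. CLOCK and BMAL1, the product of Arntl, bind E-boxes in promoters and activate the Per and Cry genes, whose proteins return to the nucleus and repress CLOCK and BMAL1. In a connected loop, the same activators drive Nr1d1 and Nr1d2, which encode the repressors REV-ERB alpha and beta, and these silence Arntl through ROR elements. Dbp is a direct output of the loop, and its protein activates further genes through D-boxes. In mouse tissues with a running clock, Dbp, Nr1d1 and the Per genes peak at hours when Arntl is low. Per1 is in addition an acutely induced gene that responds to cAMP, calcium and glucocorticoids.

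The libraries were not equal. The total count was between 2842675 and 3877006 in 6 libraries and reached 13782270 in ONX-0914 replicate 2, where the mitochondrial share of counts was 3.71% against 0.818% to 1.59% elsewhere. The library labelled ONX-0914 replicate 1 went against its tissue label: the summed level of 10 hippocampal neuron markers was 388 CPM (counts per 1000000 counts, after scaling of the libraries by TMM) against 1427 to 1498 CPM in the control and DMSO libraries, while 13 thalamus and midbrain markers summed to 969 CPM against 93.9 to 139, and 10 striatum markers to 1260 CPM against 178 to 216. Neurod6, a transcription factor of hippocampal pyramidal neurons, was at 17.4 CPM there, between 346 and 390 CPM in control and DMSO libraries and at 192 CPM in ONX-0914 replicate 2. That replicate summed to 1134 CPM over the hippocampal markers, with 6 of 10 below and 2 above all controls. Over all genes tested, it held the lowest of the 7 values for 29.2% and the highest for 30.3%. Counts of the ONX-0914 pair differed far beyond those of any other replicate pair (chi-square per degree of freedom of 84.9 against 2.63 to 3.40), and many of the fitted differences between ONX-0914 and other groups are therefore also given without either library, a choice that for genes other than the members was made after seeing the data. Each such fit holds a lone ONX-0914 library, whose spread is assumed to equal that of the other groups. In such bulk tissue, fewer cells of a type and less RNA per cell cannot be told apart.

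The promoter windows of several members hold letters that match the elements through which the loop acts. RefSeq start sites on GRCm38.p6 gave a window of 300 bases (250 before and 50 after the start) for 9 of the 10 genes, 13 windows in all, and none for Per2. The E-box CACGTG, its variant CACGTT (the E'-box), the D-box (TTATGTAA or TTATGCAA), the ROR element and the cAMP response element TGACGTCA were searched on both strands, and none of the matches shown overlap. These stretches are shown because they hold the matches of the genes described most closely here, in capitals, 5′ to 3′ on the strand of the gene: Per1 (chr11:69098759-69098948, plus strand) with an E-box and a D-box, Per3 (chr4:151044796-151044895, minus strand) with a pair of D-boxes, Cry1 (chr10:85185095-85185154, minus strand) with an E'-box followed by an E-box, Nr1d1 (chr11:98775378-98775437, minus strand) with an E'-box, and Arntl (chr7:113207530-113207555, plus strand) with a ROR element just after a start.
Per1: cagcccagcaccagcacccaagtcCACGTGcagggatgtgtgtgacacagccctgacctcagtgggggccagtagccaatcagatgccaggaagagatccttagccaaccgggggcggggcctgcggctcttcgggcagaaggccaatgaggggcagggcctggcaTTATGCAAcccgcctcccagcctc
Per3: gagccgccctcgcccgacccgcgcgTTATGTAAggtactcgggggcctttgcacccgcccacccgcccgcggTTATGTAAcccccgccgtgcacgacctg
Cry1: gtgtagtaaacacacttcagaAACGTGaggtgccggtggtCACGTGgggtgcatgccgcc
Nr1d1: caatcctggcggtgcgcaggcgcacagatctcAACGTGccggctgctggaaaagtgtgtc
Arntl: aaggcagaAAGTAGGTCAgggacgga

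The capitals AACGTG are the E'-box read on the other strand. Of all 32817 promoter windows of the same length, 7.15% held an E-box, 4.69% an E'-box, 1.66% a D-box, 1.6% a ROR element and 1.79% a cAMP response element. Among the members, an E-box was found for Per1 and Cry1, an E'-box for Cry1, Cry2 and Nr1d1, a D-box for Per1 and Per3, a ROR element for Arntl and a cAMP response element for none. Clock, Dbp and Nr1d2 had no match. Counted by window, as for the background, 2 of the 13 member windows held an E-box. An E'-box was in 3, a D-box in 2 and a ROR element in 1. A match describes letters in this window only.

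In untreated hippocampus all 10 genes were detected, at levels that spanned a wide range. Per kilobase of exon, taken as the union of all annotated exons of a gene, Cry2 was the highest at 27.2 ± 2.65 CPM (SD, n = 3). The genes of the Rev-erb receptors followed, Nr1d1 at 18.3 ± 1.07 and Nr1d2 at 16.1 ± 1.98 CPM per kilobase, and these levels overlapped each other. Per1 stood at 9.78 ± 1.03, Dbp at 7.82 ± 0.171 and Clock at 4.81 ± 0.276 CPM per kilobase, each apart from its neighbours. Cry1 (3.76 ± 0.228), Per2 (3.49 ± 0.443) and Arntl (3.15 ± 0.796) overlapped from neighbour to neighbour, and Per3 was the lowest at 1.37 ± 0.0482 CPM per kilobase. This order depends on the exon lengths used. In CPM alone, the control mean was 66.0 for Clock and 56.3 for Nr1d1. Over all 7 libraries the highest value of a gene exceeded its lowest by 1.54-fold (Cry1) to 3.47-fold (Nr1d1), with 3.11-fold for Per3 and 2.82-fold for Dbp. ONX-0914 replicate 2 held the highest value of the 7 for 5 members (Per2, Per3, Clock, Dbp and Nr1d1) and the lowest for Cry2. For comparison, it held the highest value for 30.3% and the lowest for 29.2% of all genes tested. The library labelled ONX-0914 replicate 1 held the lowest value of all 3 Per genes, as it did for 18% of all genes, and the highest of Nr1d2, as it did for 21%.

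**Figure D1:**
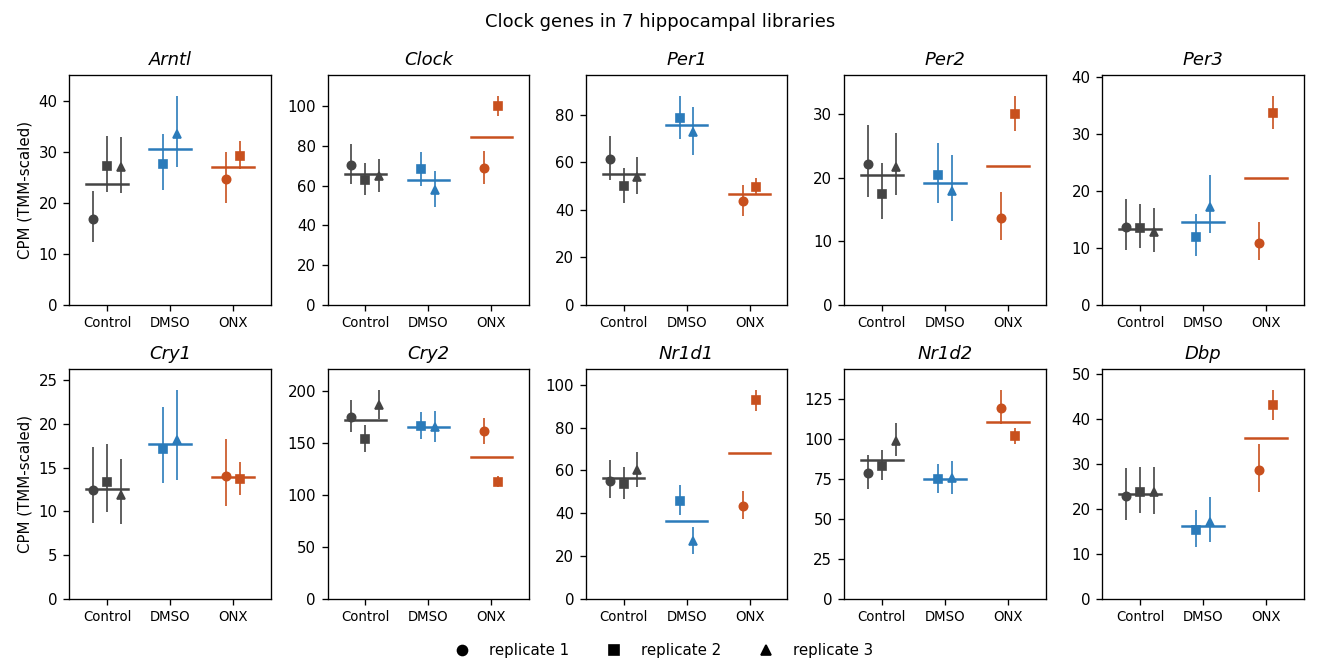
Level of each clock gene in CPM by group, with 1 point per library, its 95% exact Poisson counting interval as a vertical line and the group mean as a horizontal bar. Dbp and Nr1d1 lie lowest in the DMSO pair or in 1 of its libraries, and Per1 and Cry1 lie highest in the DMSO pair. The ONX-0914 pair is widely split for Per2, Per3, Clock, Cry2, Nr1d1 and Dbp.

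Of the positive limb, Arntl varied within the controls, and Clock was high in a single library. Arntl, the partner without which the loop stops, was at 16.8, 27.3 and 27.0 CPM in the control libraries, at 27.6 and 33.6 CPM in DMSO and at 24.7 and 29.3 CPM in ONX-0914. Both DMSO libraries were above all controls, the low control 1 widened the control range, and the ONX-0914 libraries fell among the others. The Log2FC (the fitted log2 ratio of groups) was 0.36 (SE 0.259, edgeR adjusted p = 0.9999) for DMSO against control and 0.19 (SE 0.253, edgeR adjusted p = 0.703) for ONX-0914 against control, the latter 0.27 and 0.03 without the library labelled ONX-0914 replicate 1 and without replicate 2. Clock was at 70.2, 63.0 and 64.7 CPM in controls, 68.1 and 57.8 in DMSO, and 69.0 and 100 in ONX-0914. Only ONX-0914 replicate 2 stood apart, and Log2FC against control was 0.36 (SE 0.201, edgeR adjusted p = 0.357), or 0.60 without the library labelled ONX-0914 replicate 1 (adjusted p = 0.00098) and 0.06 without replicate 2 (adjusted p = 0.837).

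The 3 Per genes did not move as a group. Per1 was at 61.3, 49.9 and 54.0 CPM in controls, at 78.6 and 72.8 CPM in DMSO and at 43.5 and 49.6 CPM in ONX-0914. The DMSO libraries were above, and the ONX-0914 libraries below, every other library, the latter by a narrow margin in replicate 2 (49.6 against 49.9 CPM in control 2). Log2FC was 0.46 for DMSO against control (SE 0.173, edgeR adjusted p = 0.9999), −0.24 for ONX-0914 against control (SE 0.174, adjusted p = 0.478) and −0.70 for ONX-0914 against DMSO (SE 0.19, adjusted p = 0.201). The latter was −0.62 without the library labelled ONX-0914 replicate 1 and −0.80 without replicate 2 (edgeR adjusted p = 0.0028 and 0.00262), and the value against control −0.15 and −0.33 (adjusted p = 0.402 and 0.21).

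Per2 was at 22.1, 17.4 and 21.8 CPM in controls, 20.4 and 17.8 CPM in DMSO, and 13.6 and 30.1 CPM in ONX-0914. Per3, whose product is largely dispensable for the loop, was at 13.5, 13.4 and 12.7 CPM in controls, 11.8 and 17.1 CPM in DMSO, and 10.8 and 33.6 CPM in ONX-0914. For both genes the ONX-0914 libraries took opposite ends of the whole range, and the groups overlapped. Consequently the direction against control turned with the library left out: without the library labelled ONX-0914 replicate 1, Log2FC was 0.55 for Per2 (edgeR adjusted p = 0.013) and 1.34 for Per3 (7.19e-06), and without replicate 2 it was −0.58 and −0.29 (edgeR adjusted p = 0.135 and 0.586). With all libraries, Log2FC was 0.14 for Per2 (SE 0.324, edgeR adjusted p = 0.839) and 0.80 for Per3 (SE 0.422, adjusted p = 0.335).

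The cryptochromes, the repressors that bind CLOCK and BMAL1 directly, differed from each other. Cry1 was at 12.5, 13.4 and 11.8 CPM in controls, 17.2 and 18.2 CPM in DMSO, and 14.1 and 13.7 CPM in ONX-0914. The DMSO libraries were the highest pair and the ONX-0914 libraries came next, above all controls, although a library held only 35 to 64 counts outside ONX-0914 replicate 2 and the counting intervals overlapped. Log2FC was 0.49 for DMSO against control (SE 0.217, edgeR adjusted p = 0.9999) and 0.14 for ONX-0914 against control (SE 0.211, adjusted p = 0.731). Cry2 was at 175, 154 and 186 CPM in controls, 166 and 165 CPM in DMSO, and 161 and 112 CPM in ONX-0914. ONX-0914 replicate 2 alone was low, with Log2FC of −0.33 (SE 0.199, edgeR adjusted p = 0.388) for the group against control, −0.62 (0.000594) without the library labelled ONX-0914 replicate 1 and −0.10 (0.698) without replicate 2.

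Nr1d1, which encodes REV-ERB alpha, was at 55.3, 53.7 and 60.0 CPM in controls, at 45.6 and 26.8 CPM in DMSO, and at 43.3 and 92.8 CPM in ONX-0914. Both DMSO libraries were below the controls but differed from each other beyond counting error, with 95% intervals of 39.0 to 53.0 and 21.1 to 33.6 CPM. The ONX-0914 libraries lay on either side of the controls. Log2FC was −0.63 for DMSO against control (SE 0.349, edgeR adjusted p = 0.9999) and 0.92 for ONX-0914 against DMSO (SE 0.372, adjusted p = 0.317), the latter 1.32 without the library labelled ONX-0914 replicate 1 and 0.22 without replicate 2 (adjusted p = 9.29e-06 and 0.591). Against control it was 0.29 (SE 0.33, edgeR adjusted p = 0.654), 0.71 (0.00119) without the library labelled ONX-0914 replicate 1 and −0.38 (0.224) without replicate 2.

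Nr1d2, which encodes REV-ERB beta, was at 78.8, 83.2 and 99.1 CPM in controls, at 74.9 and 75.7 CPM in DMSO, and at 120 and 102 CPM in ONX-0914. The 3 groups did not overlap, with DMSO lowest and ONX-0914 highest, and the gap between the highest control and the lower ONX-0914 library was small. Log2FC was −0.21 for DMSO against control (SE 0.177, edgeR adjusted p = 0.9999), 0.35 for ONX-0914 against control (SE 0.173, adjusted p = 0.314) and 0.56 for ONX-0914 against DMSO (SE 0.192, adjusted p = 0.266). Without replicate 2, Log2FC was 0.45 against control and 0.67 against DMSO. The ONX-0914 library left in that fit is the one that went against its tissue label. Without the library labelled ONX-0914 replicate 1 the values were 0.21 and 0.43.

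Dbp, the output gene with one of the largest daily swings known in mouse tissues, gave the largest fitted difference among the members. It was at 22.8, 23.7 and 23.7 CPM in controls, at 15.3 and 17.1 CPM in DMSO, and at 28.7 and 43.2 CPM in ONX-0914. As for Nr1d2, the DMSO pair was below and the ONX-0914 pair above all controls, but the counting intervals of DMSO (11.6 to 22.7 CPM over both libraries) and of the controls (17.6 to 29.3 CPM) overlapped. Log2FC was −0.53 for DMSO against control (SE 0.242, edgeR adjusted p = 0.9999), 0.63 for ONX-0914 against control (SE 0.221, adjusted p = 0.2) and 1.16, a 2.24-fold difference, for ONX-0914 against DMSO (SE 0.254, adjusted p = 0.144). The direction held without either ONX-0914 library, although without replicate 2 the ONX-0914 library left is the one that went against its tissue label. Against DMSO, Log2FC was 1.41 without the library labelled ONX-0914 replicate 1 and 0.83 without replicate 2. Against control it was 0.87 and 0.29 in the same order. Without the filter on low counts, the contrast with DMSO had an edgeR adjusted p of 0.0476 (1.11% of all genes were then called), and with DESeq2 one of 0.0832.

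Some of these counts may be affected by neighbours on the opposite strand. Reads classed as ambiguous between genes, 3.75% to 3.92% of the reads of a library, were left out rather than shared. In GENCODE M21, 18.0% of the exon bases of Dbp overlap exons of Sphk2, 8.55% of those of Nr1d1 overlap Thra, 4.67% of those of Cry2 overlap D930015M05Rik and 0.439% of those of Arntl overlap Gm45355. The library kit marks strand, but the strand setting of the counting is not given in the sources used here.

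Injection of the solvent was compared with no treatment first. Per1, Cry1 and Arntl were above, and Dbp, Nr1d1 and Nr1d2 below, all controls in both DMSO libraries. Thus 6 of 10 members did not overlap between the groups, which was the case for 30.7% of all 13152 genes tested. None of the 10 was called at an edgeR adjusted p under 0.05 (1 at an unadjusted p under 0.05), where 0.0152% of all genes were called and 2.65% had an unadjusted p under 0.05, and DESeq2 called none of them and 0.0186% of all genes. The median Log2FC was −0.06 over the members and −0.00 over all genes. The fit over all 7 libraries shares its estimate of the spread with the ONX-0914 pair, whose libraries differed most from each other. In a fit of the control and DMSO libraries alone, 1.11% of all genes were called. Per1 had an edgeR adjusted p of 0.0852, Nr1d1 of 0.095 and Dbp of 0.191, and again no member was called. In that fit 4 members had an unadjusted edgeR p under 0.05, as did 1897 of 12688 genes.

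The total effect of ONX-0914 injections was read against untreated mice. Dbp, Nr1d2 and Cry1 were above, and Per1 below, all controls in both ONX-0914 libraries, so that 4 of 10 members did not overlap against 33.2% of all genes. No member was called in this comparison (edgeR adjusted p between 0.2 and 0.839, background 0.114%), 1 had an unadjusted p under 0.05 against 18.6% of all genes, and DESeq2 called none (2.74% of all genes). The median Log2FC was 0.24 over the members and 0.05 over all genes. Without the library labelled ONX-0914 replicate 1, 6 members were called by edgeR (Per2, Per3, Clock, Dbp and Nr1d1 higher, Cry2 lower), but so were 51.2% of all genes. Without replicate 2, Nr1d2 alone was called, with 19% of all genes.

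The agent was set against its own vehicle in the comparison of ONX-0914 with DMSO, which shares libraries with both comparisons above. Dbp, Nr1d2 and Clock were above, and Per1, Cry1 and Cry2 below, the DMSO pair in both ONX-0914 libraries, 6 of 10 members against 40.5% of all genes. None was called (background 0.0456%), while 4 members (Dbp, Per1, Nr1d2 and Nr1d1) had an unadjusted edgeR p under 0.05, as did 14.7% of all genes, and DESeq2 called none (1.82% of all genes). The median Log2FC was 0.33 over the members and 0.05 over all genes. In this comparison 8 members were called by edgeR without the library labelled ONX-0914 replicate 1 (46% of all genes), and 3, Dbp, Nr1d2 and Per1, without replicate 2 (17% of all genes).

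**Figure D2:**
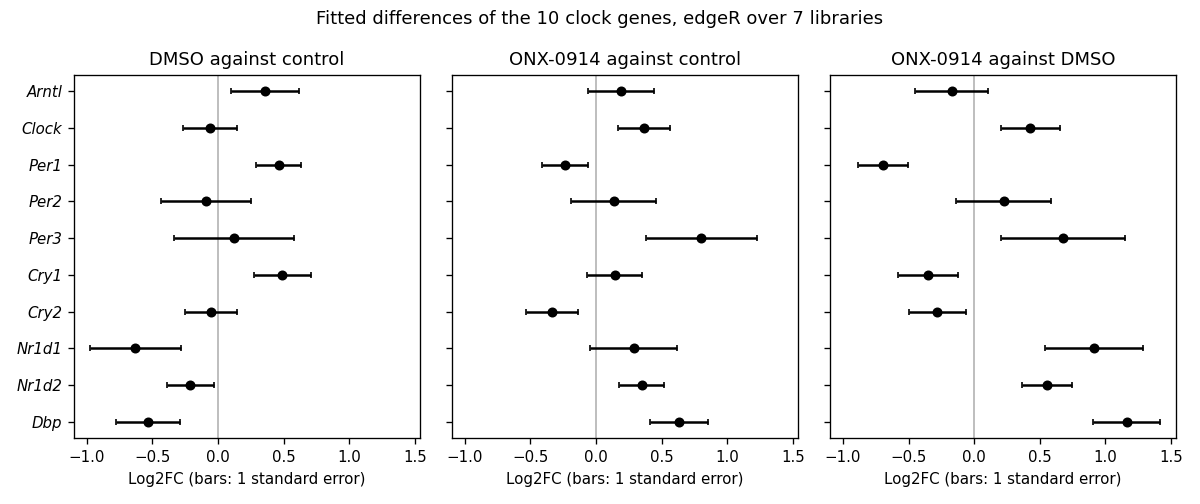
Log2FC of the 10 clock genes in each comparison (edgeR, 7 libraries), with bars of 1 standard error and a line at 0. Dbp and Nr1d1 lie left of 0 for DMSO against control and furthest to the right for ONX-0914 against DMSO, and Per1 runs the other way, from 0.46 to −0.70. The 0.92 of Nr1d1 against DMSO was 0.22 without ONX-0914 replicate 2.

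Because Dbp, Nr1d1 and the Per genes peak at hours when Arntl is low, the limbs of the loop were also compared within each library. The mean log2 CPM of Dbp, Nr1d1, Nr1d2 and the Per genes, minus that of Arntl, Clock and Npas2 (a paralogue of Clock active in forebrain), was 0.43, 0.34 and 0.28 in controls, 0.19 and 0.11 in DMSO, and 0.06 and 0.09 in ONX-0914. The groups were thus apart and in the order control, DMSO, ONX-0914. That order rested on Npas2. With Arntl and Clock alone as the positive limb, a choice made after seeing the data, the difference was 0.03, −0.34 and −0.22 in controls, −0.46 and −0.54 in DMSO, and −0.39 and −0.05 in ONX-0914, with DMSO lowest and ONX-0914 overlapping controls. ONX-0914 replicate 2 had the highest mean of both limbs, 5.71 for the former and 5.62 for the latter with Npas2, so these limbs were not opposed in that library.

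Single ratios described the same libraries differently. The log2 ratio of Dbp to Arntl was 0.45, −0.20 and −0.19 in controls, −0.85 and −0.97 in DMSO, and 0.22 and 0.56 in ONX-0914, lowest in DMSO. Control 1, with the lowest Arntl, stood apart from the other controls. The log2 ratio of Per1 to Dbp was 1.43, 1.07 and 1.19 in controls, 2.36 and 2.09 in DMSO, and 0.60 and 0.20 in ONX-0914. There was no overlap between the 3 groups. This follows from the choice of genes, since Per1 and Dbp each separated the groups, in opposite directions. For Nr1d1 to Arntl the log2 ratio was 1.72, 0.98 and 1.15 in controls, 0.72 and −0.33 in DMSO, and 0.81 and 1.67 in ONX-0914. Here ONX-0914 overlapped the controls. The contribution of the hour of death to these ratios was not tested, since no hour is given.

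**Figure D3:**
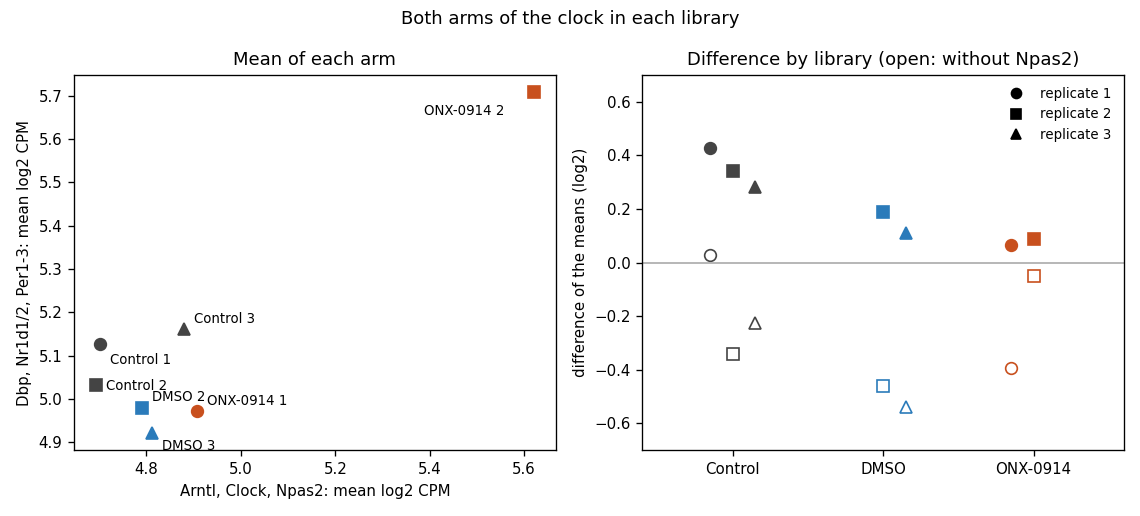
Left, mean log2 CPM of Dbp, Nr1d1, Nr1d2 and Per1 to Per3 against that of Arntl, Clock and Npas2 in each library. Right, the difference of these means by group, with filled symbols for the 3-gene positive limb and open symbols without Npas2. ONX-0914 replicate 2 is high on both axes, and the ONX-0914 pair separates from the controls only with Npas2 included.

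Further genes of the clock were examined as lists. Of 11 other clock transcription factors 10 were tested and none was called in any comparison by edgeR (3, 1 and 2 at an unadjusted p under 0.05 for ONX-0914 against control, DMSO against control and ONX-0914 against DMSO). Their median Log2FC was 0.31, −0.10 and 0.22 in the same order. Of all genes, 18.6%, 2.65% and 14.7% had an unadjusted edgeR p under 0.05. Npas2 was at 15, 10.1 and 14.6 CPM in controls, 11.3 and 11.4 CPM in DMSO, and 15.9 and 40.6 CPM in ONX-0914 (Log2FC against control 1.13, edgeR adjusted p = 0.185, and 1.62 without the library labelled ONX-0914 replicate 1 and 0.27 without replicate 2). Rora, a receptor that activates Arntl at the ROR element shown above, was at 41.4, 42.0 and 42.7 CPM in controls, 38.4 and 31.4 CPM in DMSO, and 280 and 64.7 CPM in ONX-0914 (2.02, edgeR adjusted p = 0.123, and 0.61 without the library labelled ONX-0914 replicate 1 and 2.73 without replicate 2). Its highest value was in the library labelled ONX-0914 replicate 1, where the thalamus and midbrain markers were also highest, and the part of that tissue in the value was not tested. Arntl2, a paralogue of Arntl, was below all other libraries in ONX-0914 (−0.74, edgeR adjusted p = 0.352). Nfil3, a repressor at D-boxes named after its values were seen, was at 8.56, 7.91 and 7.99 CPM in controls against 14.2 and 15.7 CPM in DMSO and 12.8 and 11 CPM in ONX-0914 (0.87 for DMSO against control, edgeR adjusted p = 0.9999).

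All 10 genes of a list of clock protein modifiers (kinases, ubiquitin ligase subunits and a deubiquitinase, with the clock-associated gene Timeless) were tested. None was called by edgeR. In the same order, 3, 0 and 0 had an unadjusted p under 0.05, against 18.6%, 2.65% and 14.7% of all genes. The median Log2FC of the list was −0.05, −0.08 and 0.25. Against control, ONX-0914 gave a Log2FC of 1.79 for Fbxl21, whose product targets cryptochromes and which stayed under 4 CPM, −0.55 for Csnk1d, a kinase of PER proteins, and −0.38 for Fbxw11, a subunit of their ubiquitin ligase (edgeR adjusted p = 0.134, 0.229 and 0.237). Of 7 output genes 5 were tested, with none called (2, 0 and 2 at an unadjusted p under 0.05, against the same shares of all genes, median −0.73, −0.31 and −0.12). Rbm3, a cold-inducible RNA-binding protein that follows body temperature, was at 224, 238 and 267 CPM in controls, 278 and 297 CPM in DMSO, and 135 and 29.3 CPM in ONX-0914. Both ONX-0914 libraries were below all others, and the lower was replicate 2 (Log2FC −1.59, edgeR adjusted p = 0.184, and −3.06 and −0.86 without the library labelled ONX-0914 replicate 1 and without replicate 2). Nampt, an enzyme of NAD synthesis driven by CLOCK and BMAL1, was also below all others in ONX-0914 (−0.73, edgeR adjusted p = 0.133).

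Because Per1 is also acutely induced, genes induced by neuronal activity and by glucocorticoids were set beside it. All 11 immediate early genes had a positive Log2FC for DMSO against control (49.5% of all genes did), with a median of 0.99, and 9 were above all controls in both DMSO libraries (15.7% of all genes were). None was called by edgeR, and 7 had an unadjusted p under 0.05, against the 2.65% of all genes given above. Their summed level was 262 to 335 CPM in controls, 867 and 705 CPM in DMSO, and 165 and 337 CPM in ONX-0914. Per1 was likewise highest in the DMSO pair, and the part of acute induction in Per1 was not tested. Arc, a synaptic activity gene, was at 107, 88.9 and 95.3 CPM in controls, 448 and 345 CPM in DMSO, and 34.5 and 66.0 CPM in ONX-0914, and was called lower in ONX-0914 than in DMSO (−2.96, edgeR adjusted p = 0.0371), with −2.60 and −3.53 without the library labelled ONX-0914 replicate 1 and without replicate 2. Against control, 7 of the 11 genes had a positive Log2FC in ONX-0914, with a median of 0.09, and 3 of the 11 without replicate 2. Arc, Fosb and Btg2 were below all other libraries in ONX-0914 (−0.93, −0.56 and −0.54, edgeR adjusted p = 0.162, 0.311 and 0.273), while Ier2 was above all controls (0.61, adjusted p = 0.439). Npas4, which like Ier2 is named after its values were seen, was at 1.76 and 17.3 CPM in ONX-0914 against 1.78 to 3.31 CPM in controls.

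Of the 9 glucocorticoid-induced genes, none was called in any comparison by edgeR. In the order of comparisons used above, 4, 4 and 5 had an unadjusted p under 0.05, against 18.6%, 2.65% and 14.7% of all genes. The median Log2FC of these 9 genes was 0.32, 0.57 and −0.32. Their summed level was 513 to 550 CPM in controls, 574 and 579 CPM in DMSO, and 286 and 375 CPM in ONX-0914. In both ONX-0914 libraries Zbtb16, Ddit4, Fkbp5 and Pdk4 were below all others (Log2FC against control −1.72, −0.96, −0.78 and −0.31, edgeR adjusted p = 0.119, 0.17, 0.16 and 0.528). The other 5 genes had a positive Log2FC against control (4 of the 9 without the library labelled ONX-0914 replicate 1, and 3 without replicate 2), of which Cdkn1a, named after its values were seen, was above all controls in both ONX-0914 libraries (1.34, edgeR adjusted p = 0.146). The directions of these 5 named genes held without either ONX-0914 library.

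Markers of other tissues and cells were read in the same way. The 9 markers of the hypothalamus and the suprachiasmatic nucleus, the seat of the central clock, summed to 10.6 to 46.1 CPM, mostly Vip, a peptide that hippocampal interneurons also make. Nms, which marks suprachiasmatic neurons, had no count in any library. The 6 endothelium markers were above all controls in both ONX-0914 libraries (16.9% of all genes were), at 276 and 254 CPM in sum against 152 to 166 CPM in controls and 158 and 197 CPM in DMSO. The choroid plexus markers summed to 44.1 to 193 CPM with control 1 and ONX-0914 replicate 2 highest. In the ONX-0914 pair the oligodendrocyte markers summed to 9702 and 4289 CPM, on either side of the controls (4932 to 7399 CPM), and the astrocyte markers to 3743 and 2301 CPM, of which the latter was below the controls (3130 to 3745 CPM). The microglia markers summed to 272 and 338 CPM in ONX-0914 and to 278 and 317 CPM in DMSO, all above the controls (245 to 256 CPM). The clock genes themselves summed to 498 to 561 CPM in controls, 526 and 502 CPM in DMSO, and 528 and 607 CPM in ONX-0914. The part of these cell and tissue differences in the clock genes was not tested.

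**Figure D4:**
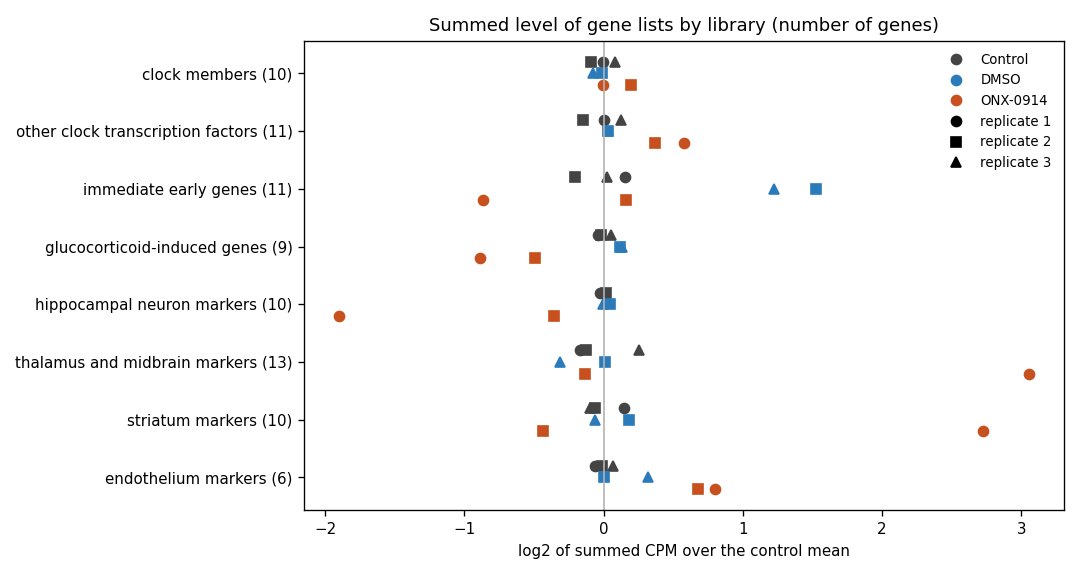
Summed CPM of 8 gene lists in each library as log2 of the ratio to the control mean, with the number of genes of each list in brackets. The sum of the clock genes stays close to 0 in every library. Opposite shifts can cancel in it, such as low Cry2 with high Clock and Nr1d1 in ONX-0914 replicate 2. The immediate early genes are high in DMSO. The library labelled ONX-0914 replicate 1 lies far from the others for the hippocampal, thalamus and midbrain, and striatum markers.

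Finally, the genes most like Dbp and Arntl over the 7 libraries were listed by Pearson r of log2 CPM, as a description without a test. For Dbp they were Krba1 (0.984), Kcna3 (0.982), a potassium channel gene, Tmem161b (0.981), Inpp5j (0.977) and Slc18a2 (0.977), the vesicular monoamine transporter. Among clock genes, r with Dbp was highest for Npas2 (0.86) and Clock (0.80), and lowest for Per1 (−0.81). For Arntl the closest reported here were Pkd2l2 (0.974), Ccdc190 (0.974), Adprm (0.968) and Zbtb49 (0.962), and r between Arntl and Dbp was −0.07. These 7 points share libraries of unequal depth and composition, with ONX-0914 replicate 2 highest for Dbp.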

How the data were processed

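RNA-seq of hippocampus (directional kit, 100 bp single-end reads) gave 7 libraries, grouped by their labels. The authors deposited raw counts per gene, 1 file per library. The submitters' processing notes name Trimmomatic 0.39, STAR 2.7.3a, featureCounts 2.00 and GRCm39, without the annotation release or the strand setting. Of the reads, 89.6% to 91.4% were assigned to a gene, and the rest were left out. Symbols and exon lengths came from GENCODE M21, so coordinates of genes are not given. Symbols were found for 52083 identifiers, holding 99.8% of counts.

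The tests used edgeR 4.0.16 under R 4.3.3 (filterByExpr, TMM factors 0.965 to 1.10, glmQLFit and glmQLFTest, 1 mean per group over all 7 libraries, Benjamini–Hochberg adjustment over 13152 genes, threshold 0.05). The common biological coefficient of variation was 0.249. CPM used TMM-scaled library sizes, and intervals are 95% exact Poisson and cover counting error only. The steps were tested on simulated data. Alternatives included DESeq2 1.42.0, other scalings and filters, the replicate block and leaving out each library. No source says which mice gave the libraries, so p-values measure the spread between these samples, which may be technical. Whether the numbers pair the samples could not be tested, since in a group of 2 libraries the deviations mirror each other.

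The members and lists were chosen with earlier results of these data known. Named were all members, listed genes called in a comparison, up to 4 genes per list whose ONX-0914 libraries lay on one side of all others (for the marker lists, sums and examples), and the 5 genes closest to Dbp and to Arntl, of which 1 is not reported here.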

Additional observations from a re-analysis of the deposited data

How the results depend on the processing

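Of the fitted differences of the members, the direction changed in 4 of the 160 alternative fits for ONX-0914 against control, 5 of 160 for DMSO against control and 3 of 160 for ONX-0914 against DMSO. With a replicate block, Log2FC was −0.12 for Per3 and 0.024 for Cry2 in DMSO against control and 0.13 for Arntl in ONX-0914 against DMSO. The r of deviations from the group means was between −0.0963 and 0.064 for same-number samples, and the block gave 1, 0 and 0 genes called. In a group of 2 libraries the deviations mirror each other, so these r cannot show whether the numbers pair the samples. Leaving out 1 library at a time, Log2FC in ONX-0914 against control ranged from −0.58 to 0.55 for Per2, −0.29 to 1.34 for Per3, −0.38 to 0.71 for Nr1d1 (ends without ONX-0914 replicate 2 and replicate 1) and −0.0021 (without control 1) to 0.30 for Arntl. In DMSO against control it ranged from −0.16 to 0.38 for Per3 and −0.19 to 0.046 for Clock (ends without either DMSO library), and −0.13 to 0.011 for Cry2. In ONX-0914 against DMSO it ranged from −0.51 to 0.63 for Per2 and −0.39 to 1.24 for Per3.

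The number of genes called for ONX-0914 against control was 15, and 358 with DESeq2, 578 without a filter, 3 from the compared groups alone, and 0 to 7023 leaving out a library (0 without any 1 control, with 1424 to 1554 at an unadjusted p under 0.05). For DMSO against control it was 2, and 5 with DESeq2, 11 without a filter, 0 with a minimum of 10 counts (290 unadjusted), 141 from the compared groups alone, and 0 to 146 leaving out a library. For ONX-0914 against DMSO it was 6, and 229 with DESeq2, 11 with RLE size factors, 3 with total counts, 297 without a filter, 10 with a minimum of 10 counts, 0 from the compared groups alone (821 unadjusted), and 0 to 6313 leaving out a library. Members called ranged from 0 to 6 for ONX-0914 against control and 0 to 8 for ONX-0914 against DMSO leaving out a library, with 1 (Dbp) without a filter in the latter, and were 0 throughout for DMSO against control. Without Npas2, chosen after seeing the data, the difference of the limbs was 0.027, −0.34 and −0.22 in controls, −0.46 and −0.54 in DMSO, and −0.39 and −0.0498 in ONX-0914. Apart from what a left-out library or group explains by construction, the cause was not tested. Cry1, Per3 and Per2 held 35 to 79 counts outside ONX-0914 replicate 2. Dbp held 57 and 48 counts in the DMSO libraries, and Arntl held 47 in control 1. Counting intervals are widest, relative to the level, at such low counts, but the part of depth in the fitted spread was not tested. Every test was limited by 2 libraries per injected group.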
